A study of Arabidopsis thaliana with 24 samples.

Results

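The 100 probe sets described here are those with the clearest excess of signal in shoots at 0.5 h of salt over every later time in shoots. They represent 98 genes of Arabidopsis thaliana, each entered in the platform's gene table under its locus code, since probe sets of genes with a symbol there were not eligible. They were taken from 6925 probe sets of 1 locus code that reached a signal of 42 in at least 2 arrays, out of 22810 on the array. For each, the score was the mean of log2(signal + 2.2) in shoots at 0.5 h minus the highest of the 5 later shoot means, and the 100 highest scores were kept. The members were thus chosen by their measured shoot values, so these values are given as a description with no test, and tests are confined to the root arrays and to gene lists outside the members.

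All plants were Col-0, the standard laboratory accession, grown at 24 °C on Murashige and Skoog medium in days of 16 h of light. On day 16, after 3 h of light, the rafts were lifted out, sodium chloride was stirred into the medium to 150 mM, and the rafts were returned. Shoots and roots were taken 0.5, 1, 3, 6, 12 and 24 h later, with 2 arrays for each of the 12 groups, 24 in all. Every group received salt, no untreated plants were analysed here, and 0.5 h was the earliest sample, so a level raised by the treatment and a level that was already high before it cannot be told apart. By the clock, 24 h lies close to 0.5 h, and 3, 6 and 12 h fall later in the day. Whether the 2 arrays of a group hold plants grown apart is not stated in the labels, and a p-value here therefore reflects the spread between these samples alone, which may be technical.

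As background, plants respond to salt, to mechanical disturbance and to changes of light, sugar or oxygen supply with waves of transcripts that differ in speed. Early waves are known for calcium sensors, zinc finger, WRKY and ERF transcription factors and ubiquitin ligases, whose transcripts turn over quickly. Slower waves carry dehydrins and late embryogenesis abundant proteins, which are controlled largely by abscisic acid. Another set of transcripts, high when carbon is short and low when sugar is plentiful, also changes within short times of a change in supply.

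The values are MAS5 signals on a linear scale, and the number of arrays limits their precision. Array medians lay between 37.2 and 47.2. Over the 15170 probe sets tested, the 2 arrays of a group correlated with Pearson r from 0.961 to 0.984 in 11 groups and at 0.857 in roots at 12 h, computed across probe sets, which are no replicates of one another. Of 14 listed shoot markers 6 matched a probe set that passed the limit, and their summed signal was 13199 to 25748 in shoots and 157 to 763 in roots. Of 14 root markers 3 did, with a summed signal of 446 and 625 in the shoot arrays of 0.5 h, 225 to 1073 in the 10 later shoot arrays and 2873 to 4344 in roots. Nearly all of that sum is PYK10, at 2841 to 4295 in roots. The remaining genes of both marker lists matched no probe set by name, so their signals were not read. The other matched root markers overlapped between the tissues: EXPA7 had 9.84 to 92.2 in roots and 2.57 to 18.5 in shoots, and EXPA18 had 13.7 to 104 and 7.56 to 25.8. In bulk tissue, fewer cells of a type and less RNA per cell cannot be told apart.

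The highest score belonged to AT1G33055, a gene for a short protein known from the response to low oxygen. Its signals in shoots were 79.7 and 131 at 0.5 h and lay between 1.12 and 3.8 in the 10 later arrays, with a median of 2.67. The later arrays are close to the floor of the scale, so the score of 4.26 (19.2-fold on the log2(signal + 2.2) scale) understates the ratio of the signals. In roots the same probe set ran from 50.0 to 643, with 357 and 174 at 0.5 h. AT4G10270, of a family of small wound-responsive proteins and also known from low oxygen, had shoot signals of 24.4 and 48.2 at 0.5 h and 2.86 to 11.3 later. In both genes the 2 arrays of 0.5 h lay above all later ones, with replicate 2 the higher.

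**Figure D1:**
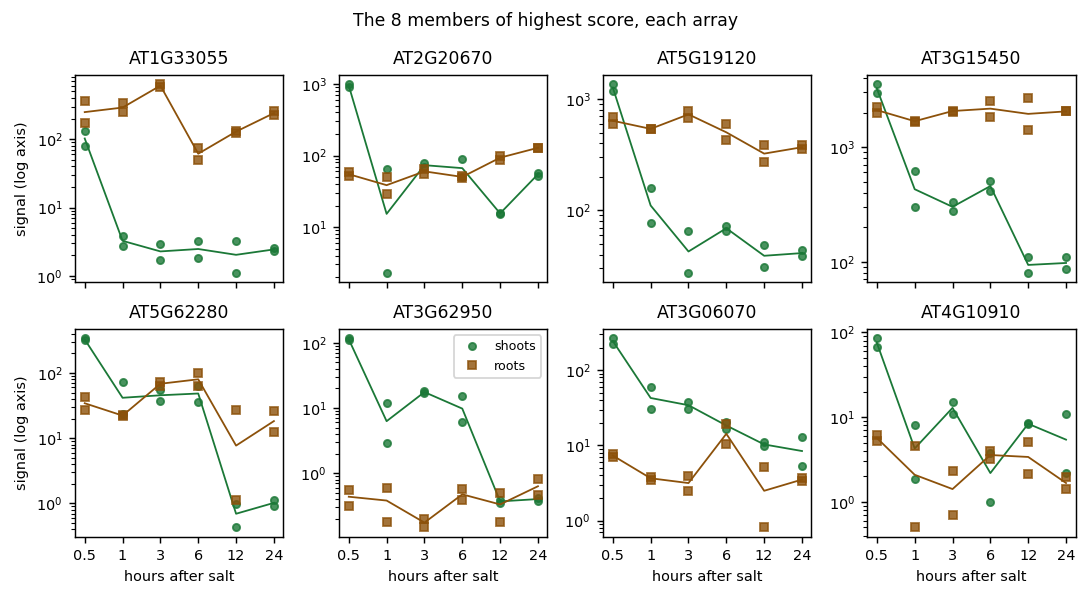
Signals of the 8 members of highest score in each array, on a log axis, against hours after salt; circles are shoots, squares are roots, and lines join group means of log2(signal + 2.2). In every panel both shoot arrays of 0.5 h lie above all 10 later shoot arrays, while the root arrays follow no common course: AT3G15450 stays at 1412 to 2684 in roots and AT3G62950 at 0.150 to 0.819.

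Several of the leading members carried strong signals at 0.5 h. AT2G20670 stood at 899 and 1001 and then at 2.31 to 89.5 in the later arrays, with a score of 3.66 (12.6-fold). Its 2 arrays of 1 h disagreed, at 65.6 and 2.31, and both lay far below 0.5 h. AT5G19120, of the aspartyl protease family, had signals of 1179 and 1368 at 0.5 h, 158 and 77.1 at 1 h and 27.5 to 72.4 from 3 h on. AT3G15450, a gene known to be induced in darkness and by the energy-sensing kinase SnRK1, had 2959 and 3550 at 0.5 h, then 617 and 298 at 1 h, and by 24 h it had 86.5 and 110. Its lowest values came at 12 and 24 h, well after 1 h. AT4G27450, a related protein of the same family, had 1076 and 1068 at 0.5 h, 321 and 263 at 1 h and 26.2 to 46.3 at 12 and 24 h. AT1G23390, a kelch repeat F-box protein that targets chalcone synthase of flavonoid synthesis, had 1732 and 2064 at 0.5 h and 74.2 to 541 later.

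Several members encode transcription factors, with scores of 2.12 or less among those named here. AT1G25550 and AT1G68670, 2 related GARP factors of nitrate and phosphate signalling, had similar scores of 2.12 and 1.95. AT1G25550 had 380 and 484 at 0.5 h and 37.0 to 100 in the 10 later arrays, and AT1G68670 had 491 and 542 and then 96.7 to 138. Among the later means AT1G25550 was lowest at 1 h and highest at 12 h, and AT1G68670 was lowest at 1 h and highest at 3 h. AT5G61590, listed with the synonym DEWAX and known as an ERF factor that represses wax synthesis, behaved otherwise: its signals of 473 and 565 at 0.5 h became 59.1 and 35.9 by 1 h, returned to 275 and 273 by 6 h, and ended at 31.6 and 42.7 (24 h). The mean at 6 h, the highest later one, set its score of 0.91. AT5G07580, another ERF factor, had 199 and 235 at 0.5 h and 55.9 to 124 later. Of 3 PLATZ zinc-binding factors, AT4G17900 had 196 and 246 and then 80.3 to 109, AT5G46710 had 81.8 and 90.3 and then 16.6 to 47.4, and AT1G32700 had 292 and 325 and then 67.7 to 175. AT3G46600, a GRAS factor, had 150 and 181 at 0.5 h and 18.7 to 60.1 later. In each of these 8 genes both arrays of 0.5 h lay above all later arrays. These families were picked out after the values were seen.

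Other members belong to redox, wall, signalling and lipid functions. AT3G62950, a glutaredoxin, had 116 and 110 at 0.5 h, 2.91 to 18.3 from 1 to 6 h and 0.352 to 0.425 at 12 and 24 h. Its neighbour AT3G62930, also a glutaredoxin and 2 protein-coding genes away in the RefSeq order, had 42.4 and 52.8 at 0.5 h and 2.08 to 27.1 later. AT4G18340, a family 17 glycosyl hydrolase, had 83.5 and 76.1 and then 2.52 to 19.3, and AT2G27500 of the same family had 202 and 204 and then 71.2 to 95.8. AT1G02660, a class 3 lipase, had 281 and 292 at 0.5 h, then 37.5 and 34.1 (1 h), and 131 and 103 by the last time. AT5G24210, also a class 3 lipase, had 203 and 276 at 0.5 h and 21.7 to 91.2 later. AT2G47560, a RING-type ubiquitin ligase of the ATL family, was dim, with 32.2 and 25.3 at 0.5 h and 2.78 to 9.11 later. AT5G14120, of the major facilitator transporters, had 2024 and 2179 at 0.5 h, 1146 and 733 at 1 h and 159 to 488 from 3 h on.

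The course after 0.5 h differed among the 100 members. The lowest later mean in shoots came at 12 h in 40 members, at 24 h in 24, at 3 h in 14, at 1 h in 13 and at 6 h in 9. The highest later mean came at 1 h in 35 members, at 3 h in 23, at 6 h in 21, at 24 h in 12 and at 12 h in 9. The median difference from 0.5 h was -1.42 at 1 h, -1.58 at 3 h, -1.62 at 6 h, -1.98 at 12 h and -1.76 at 24 h on the log2 scale, against 0.07, 0.01, 0.05, 0.04 and -0.02 over all probe sets tested. By construction all these differences are negative. At 24 h, near the clock time of the first sample, the middle 50% of the members lay between -2.36 and -1.34.

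**Figure D2:**
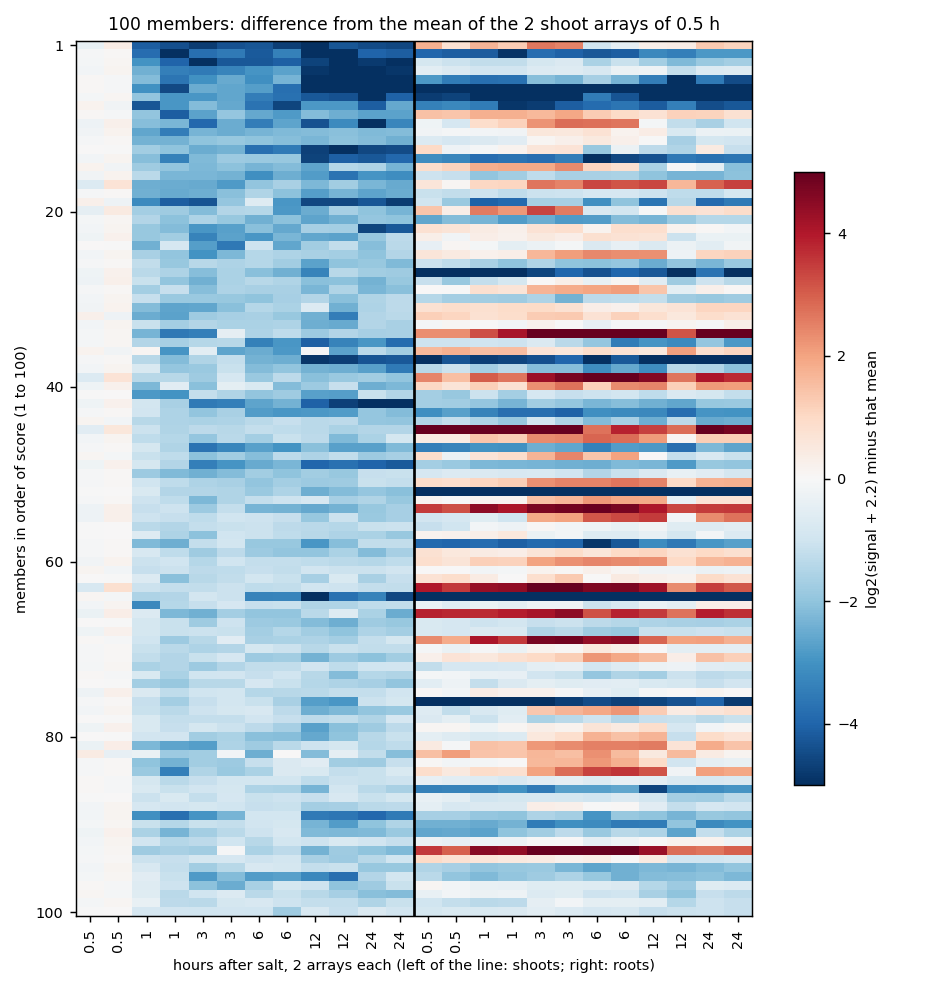
Each row is a member, in order of score from the top, and each column an array, shoots left of the line and roots right of it, in order of time; colour gives log2(signal + 2.2) minus the member's mean in the 2 shoot arrays of 0.5 h. The shoot arrays after 0.5 h are blue in nearly all rows, as the choice of members requires, while the root arrays hold both red and blue rows.

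The arrays of 0.5 h were set against each later array in turn. Both arrays of 0.5 h lay above all 10 later shoot arrays in 97 of the 100 members, where 7.51% of all probe sets tested did so. The contrast is the one that chose the members, so nothing is read from that count. The exceptions were AT1G79470, an inosine monophosphate dehydrogenase, AT4G20230, of the terpene synthases, and AT1G05575, all dim in shoots. AT4G20230, for example, had 18.6 and 9.31 at 0.5 h and 0.612 to 13.3 later. In 11 members neither shoot array of 0.5 h reached the signal of 42. Among these, AT4G39675 and AT4G24110, both known from low oxygen, had shoot signals of 2.72 and 8.37 and of 1.62 and 9.15 at 0.5 h, and entered through their root signals. For 5 members the 2 shoot arrays of 0.5 h alone reached 42, and 26 reached it in all 24 arrays.

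Scores ran from 0.84 to 4.26 with a median of 1.14, a 2.2-fold excess over the highest later mean. They reached 1 in 64 members and 2 in 11. Of all 6925 eligible probe sets, 1224 had a score above 0. No gap set the members apart: the last inside were AT1G27210 and 1 probe set of AT1G21830, a gene with 2 probe sets, and then AT5G16650, and the first outside were AT5G54170, AT4G19530 and AT3G23880. AT5G16650 had 239 and 249 at 0.5 h and 70.3 to 149 later (score 0.84), and AT5G54170 had 224 and 232 and then 82.7 to 158 (score 0.83). The values on both sides of the limit thus look alike.

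2 genes were represented by 2 probe sets each. Those of AT2G30600, a BTB domain protein, had 634 and 848 and 542 and 730 at 0.5 h, with scores of 1.27 and 1.16. For AT1G21830 the scores were 1.44 and 0.84. No further probe set of a member gene was found, and no member probe set was of a kind marked as shared with other transcripts. As a description of how the score repeats, of 100 probe sets chosen on the replicate 1 arrays alone 91 had a score above 0 in the replicate 2 arrays, as did 17.1% of eligible probe sets. Chosen on the replicate 2 arrays, 91 had a score above 0 in the replicate 1 arrays, as did 17.9%. These are not the same 100 probe sets as the members, whose choice used both arrays of each group.

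**Figure D3:**
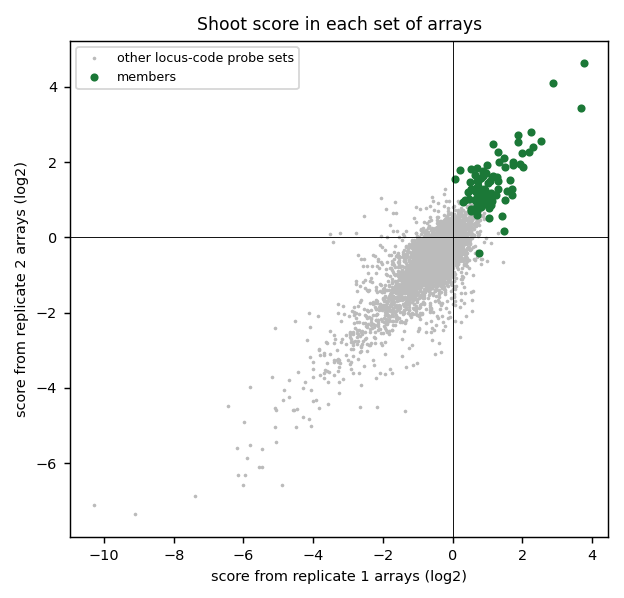
Score of each eligible probe set computed from the replicate 1 arrays (horizontal) and from the replicate 2 arrays (vertical), in log2 units; green points are the 100 members and grey points the others. All members lie above 0 on the horizontal axis and 99 on the vertical axis, which their choice by the mean of both favours.

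The root arrays, which the score did not use but the signal limit did, were tested next. The comparison asks whether the same genes were also lower in roots after 0.5 h. Both shoot arrays of 0.5 h reached the signal limit in 86 members, and the others passed it only with root arrays. That can favour a rise in roots. Of these others, AT4G10270, AT5G14730, AT5G39580, AT1G66090, AT4G24110, AT4G28085 and AT1G05575 were called higher at 3 h. AT2G47560, AT1G79470, AT3G09020, AT4G39675, AT5G51390, AT3G43430 and AT4G20230 were not called at 3 h. Against 0.5 h, limma called 24 members higher and 1 lower in roots at 3 h, where 8.21% of all probe sets tested were called higher and 4.85% lower. At 6 h, 24 were higher and 9 lower (11.0% and 13.2% of all). The median difference of the members was 0.22 at 3 h and 0.00 at 6 h, against -0.19 and -0.21 over all probe sets. Calls needed an adjusted p under 0.05 by limma with Benjamini-Hochberg adjustment and at least 2-fold. At 1 h, 1 member was higher and 0 were lower (0.376% and 0.0132% of all), with 7 lower and 7 higher at an unadjusted p under 0.05. At 12 h, 7 were higher and 12 lower (6.84% and 6.70%), and at 24 h, 9 were higher and 10 lower (8.04% and 6.53%). At 24 h the higher count is close to the share of all probe sets.

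The count at 3 h fell to 15 higher without replicate 2 of 0.5 h in roots and to 18 without replicate 2 of 3 h, and was 21 or more without any other root array. At 12 h the higher count became 3 when replicate 2 of 0.5 h was left out, 4 when the first array of 12 h was, and 17 when the other was, and the lower count was 6 without replicate 1 of 0.5 h. At 24 h, 4 were higher without replicate 1 of 24 h, and 6 were lower without replicate 2 of 0.5 h or of 24 h. The single call at 1 h was lost when any 1 of the 4 root arrays of 0.5 h and 1 h was left out, and the count lower at 3 h was 0 without replicate 2 of 0.5 h or of 3 h and 3 without replicate 1 of 3 h.

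Over the 5 later times 30 members were called higher in roots at least once (14.9% of all probe sets), 22 lower at least once (17.2%), 3 of these both ways (0.264%), and 51 at no time (68.1%). Of those higher, 19 were so at both 3 and 6 h (7.24% of all) and 6 at all of 3, 6, 12 and 24 h (3.55%). AT1G25400, AT5G14730, AT5G39580, AT1G66090, AT2G39400 and AT1G32920 are these 6. Their calls at 12 h rest on the 2 arrays that agreed least of all groups (r = 0.857). AT1G25400, for example, had 740 and 226 in roots at 12 h. The highest root mean of the 6 times fell at 3 or 6 h in 57 members, where it did in 28.6% of all probe sets. It fell at 0.5 h in 23 members (34.5% of all), at 1 h in 6 (10.4%), at 3 h in 24 (8.01%), at 6 h in 33 (20.6%), at 12 h in 4 (12.1%) and at 24 h in 10 (14.5%). Both later arrays lay above both root arrays of 0.5 h in 27 members at 1 h (19.2% of all), 49 at 3 h (26.5%), 42 at 6 h (29.8%), 18 at 12 h (21.3%) and 31 at 24 h (29.4%). 87 members reached a signal of 42 in at least 2 root arrays. Tested among the 13458 probe sets that did so, 25 of these 87 were higher and 0 lower at 3 h, with 9.12% and 4.93% of all those probe sets. This filter keeps members that passed the limit through root arrays, so it too can favour a rise in roots.

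Members that rose in roots at 3 and 6 h included genes with modest scores in shoots. AT1G66090, of the intracellular immune receptors with a TIR and a nucleotide-binding domain, had root signals of 20.9 and 23.0 at the start, then 165 and 179 (3 h), 385 and 447 (6 h), 502 and 39.3 (12 h) and 228 and 294 (24 h). It rose by 2.85 ± 0.68 at 3 h (adjusted p = 0.00490) and by 4.11 ± 0.68 at 6 h (adjusted p = 1.60e-04, limma, SE). In shoots the same gene went from 36.0 and 51.0 at 0.5 h to 9.81 to 20.1 later. AT1G63750, a receptor of the same class, rose by 2.78 ± 0.69 in roots at 6 h. The third, AT1G72940, rose by 1.78 ± 0.40 at 3 h and fell by 1.24 ± 0.40 on the log2 scale at 24 h. AT5G14730 had root signals of 181 and 179 at 0.5 h and 1256 and 1373 at 3 h (2.85 ± 0.76, adjusted p = 0.00954), a call that was lost with 1 h as the reference (1.49) and without replicate 2 of 0.5 h (2.85) or of 3 h (2.79). AT5G39580, a class III peroxidase, had 245 and 130 at 0.5 h and 1487 and 1609 at 6 h (3.10 ± 0.51). Its call at 24 h (1.93 ± 0.51) was lost without replicate 2 of 0.5 h (1.47) or replicate 1 of 24 h (1.77).

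AT2G39400, of the alpha/beta hydrolases, had the smallest SE among these, with root signals of 116 and 76.3 at 0.5 h that became 469 and 608 by 3 h and 713 and 849 by 6 h (3.02 ± 0.26 at that time, adjusted p = 1.00e-06). In shoots it had 167 and 202 at 0.5 h and 32.4 to 104 later. Its fall in shoots was fixed by the choice of members, so only the rise in roots was tested. AT2G25735 had 104 and 65.3 in roots at 0.5 h, then 571 and 850 (3 h), 813 and 766 (6 h) and finally 37.4 and 59.4 (24 h), with a difference of 3.05 ± 0.60 at 3 h (adjusted p = 0.00159), a call that was lost with 1 h as the reference (1.51). AT1G05575 followed a like course, from 418 and 284 to 2589 and 2387 at 6 h and 232 and 290 at 24 h. AT4G28085 was the member called at 1 h (1.68 ± 0.32, adjusted p = 0.0241), going from 119 and 83.6 to 391 and 270; the difference was 1.42 to 1.95 without 1 of these 4 arrays, and uncalled. AT1G25400 was higher at 3, 6, 12 and 24 h, with 109 and 76.0 at 0.5 h and 553 and 767 at 24 h (2.81 ± 0.43, adjusted p = 2.29e-04).

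By the families named above, the PLATZ factors AT4G17900 (1.41 ± 0.27 at 3 h) and AT5G46710 (1.5 ± 0.47) rose in roots, while AT1G32700 had 522 and 443 at 0.5 h and 485 and 588 at 3 h, with no call. Of the GARP factors, AT1G68670 rose at 6 h by 1.13 ± 0.31 to 730 and 622, and AT1G25550, at 0.59 at 6 h, did not pass. AT3G46600 rose by 1.36 ± 0.50 at 3 h, and AT2G26190, of the calmodulin-binding proteins, by 1.79 ± 0.40. AT5G46780, of the VQ proteins that bind WRKY factors, rose by 1.5 ± 0.29. For AT1G21830, 1 probe set was called higher at 3 h (1.68 ± 0.38) and the other was not (0.81). The ERF factors AT5G61590 and AT5G07580 were called at no time in roots, nor were the class 3 lipases AT1G02660 and AT5G24210. All but AT5G24210 passed the adjusted p by limma at 6 h and missed the 2-fold limit. The differences were -0.75 for AT5G61590 (adjusted p = 0.0371), -0.95 for AT5G07580 (adjusted p = 4.79e-04) and 0.82 for AT1G02660 (adjusted p = 0.00489).

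Among the 9 members lower in roots at 6 h, AT4G39675 had root signals of 1042 and 380 at 0.5 h, then 838 and 856 (3 h), and by 6 h it had 44.6 and 102 (-3.18 ± 0.49, adjusted p = 8.70e-05). AT1G33055 was first higher at 3 h, at 643 and 574 (1.28 ± 0.33, adjusted p = 0.00802), and then lower at 6 h, at 50.0 and 75 (-1.98 ± 0.33, adjusted p = 1.81e-04). AT4G10270 did the same, with 379 and 217 at 3 h (2.12 ± 0.48) and 19 and 17.1 at 6 h (-1.71 ± 0.48). Both genes were thus above their first level at 3 h and below it at 6 h. AT4G24110 rose at 3 h (2.13 ± 0.48) to 412 and 374 and stood at 166 and 170 at 6 h. AT4G27450 changed by -1.48 ± 0.48 at 6 h, with its 2 arrays of 0.5 h at 2132 and 903 and those of 6 h at 284 and 865. The arrays of each time thus disagreed, and the replicate 2 arrays lay close together. The mitochondrial carrier proteins AT5G26200 (-1.68 ± 0.44) and AT1G72820 (-1.63 ± 0.25) were also lower at 6 h and at 24 h (-1.35 ± 0.44 and -1.17 ± 0.25). AT1G23390 (-1.65 ± 0.33), AT3G62930 (-1.60 ± 0.51) and AT2G37950 (-1.02 ± 0.20) complete the 9.

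At 24 h the lowest root differences were those of AT2G47560, from 53.9 and 64.9 to 19.6 and 5.04 (-2.29 ± 0.52, adjusted p = 0.00326), and AT5G26270, from 383 and 213 to 50.0 and 65.8 (-2.27 ± 0.78, adjusted p = 0.0325). AT5G26270 was already at 44.7 and 50.1 at 1 h, and with 1 h as the reference its difference at 24 h was 0.27; its call was also lost without any 1 of the 4 arrays of 0.5 h and 24 h, at -2.69 to -1.85. AT1G66180, an aspartyl protease, changed by -1.77 ± 0.29 at 24 h. The call of AT2G47560 was lost without replicate 2 of 24 h (-1.49). AT5G59080 was also called (-1.45 ± 0.45), at root signals of 0.605 to 16.8 in all arrays, but not without replicate 2 of 0.5 h (-1.02) or of 24 h (-0.96). The only member lower at 3 h was AT3G50560, at 18.4 and 24.0 at 0.5 h and 10.2 and 8.33 at 3 h (-1.02 ± 0.25, adjusted p = 0.00554), and its call was lost without replicate 2 of 0.5 h (-0.85) or of 3 h (-0.90).

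Levels in the 2 tissues differed as well, and since the shoot values at 0.5 h chose the members these are given without a test. At 0.5 h the root mean was above the shoot mean in 37 members (63.9% of all probe sets), with a median root minus shoot difference of -0.47 on the log2 scale, and at 24 h in 81 members (54.6% of all), with a median of 1.24. Low shoot values at 24 h are part of how the members were chosen, so nothing is read from this change. Among the strongest contrasts, AT3G62950 had root signals of 0.150 to 0.819 in all 12 arrays and AT1G13650 of 0.530 to 2.72, against 116 and 110 and 438 and 379 in shoots at 0.5 h. For AT3G15450, root signals were 1412 to 2684 at all times. Its shoot signals lay above that range at 0.5 h (2959 and 3550) and below it in all later arrays (80.4 to 617).

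Genes commonly named as rapid stress responders were set beside the members through lists of genes outside them. Of 126 genes in 9 such lists, 26 matched by symbol a probe set that passed the limit. ERF022 matched a probe set under the limit, and the rest matched no probe set by symbol, so their signals were not read. The lists of MYB, NAC and HSF factors and of membrane and defence genes had no match. Carrying symbols, none of the 26 could be a member. By the same score WRKY22 (1.17), PUB23 (0.93) and WRKY53 (0.87) lay above the lowest member. In shoots at 1 h, 0 of the 26 were called lower than at 0.5 h and 1, PUB19, was called higher (1.75% and 0.468% of all probe sets). Some of the 26 were so dim in shoots at 0.5 h that they could hardly fall, such as CML37 (0.947 and 0.692) and CML39 (0.766 and 0.568). At an unadjusted p under 0.05 by limma, 5 were lower and 1 higher. The median of the 26 at 1 h was -0.16, against 0.07 over all probe sets. At 3 h, 2 were lower and 1 higher (5.08% and 5.51%), the 2 being WRKY22 and the ubiquitin ligase PUB22, at 6 h 2 were lower and 1 higher (5.74% and 7.82%), at 12 h 2 lower and 1 higher (6.51% and 7.54%), and at 24 h 3 lower and 1 higher (6.96% and 7.48%). PUB19, a U-box ubiquitin ligase of drought signalling, was the higher one at every time.

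The lowest differences at 1 h were those of the calcium sensor CML38 (-1.80), of WRKY53 (-1.56) and WRKY6 (-1.43), transcription factors of defence and senescence, of the zinc finger factor STZ (-1.39) and of WRKY22 (-1.22), with none called. PUB23 was at -1.13, ZAT18 at -0.92, ORA47 at -0.90, CML40 at -0.87 and PUB22 at -0.76, and PUB19 at 1.55. Some of these differences rest on signals near the floor of the scale. ZAT18 had 1.23 and 4.40 at 0.5 h and 0.351 and 0.261 at 1 h, and CML40 had 0.554 and 6.03 and then 0.695 and 0.139. For WRKY6 the arrays of 0.5 h disagreed, at 5.40 and 29.4, with 2.40 and 5.04 at 1 h. By list, the medians were -1.43 for the 3 WRKY genes, -0.92 for the 3 zinc finger genes, -0.12 for the 10 calmodulin-like genes, -0.07 for the 3 ERF genes and 0.21 for the 5 PUB ligases. The jasmonate gene OPCL1 was at -0.16 and the phosphatase gene AP2C2 at 0.15. Without replicate 1 of 0.5 h in shoots, 1 of the 26 was lower at 1 h and 0 higher, 0 were lower at 3 h and 4 at 12 h. Without replicate 2 of 0.5 h, the counts were 0 higher at 1 h, 2 higher at 3 h and 6 h, and 1, 0 and 1 lower at 3, 6 and 12 h. The higher call of PUB19 at 1 h was further lost without 1 h replicate 2 or any array of 6 or 24 h. Lower counts became 0 and 1 at 3 h without replicate 1 or 2 of 3 h, 1 and 0 at 6 h without replicate 1 or 2 of 6 h, and 1 at 12 h without either array of 12 h.

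In roots the same 26 genes had 24 called higher and 0 lower at 3 h (8.21% and 4.85% of all probe sets). At an unadjusted p under 0.05 by limma, 0 were lower as well. At 6 h, 23 were higher and 1 lower (11.0% and 13.2% of all). The medians of the 26 genes were 2.32 and 2.77, beside 0.22 and 0.00 for the members and -0.19 and -0.21 over all probe sets tested. Some of the 26 passed the signal limit through later root arrays alone, which favours a rise there. ERF019, for example, had 0.339 to 15.4 in shoots, 5.71 and 7.97 in roots at 0.5 h and 659 and 859 at 3 h. The medians of lists and members are therefore not weighed against each other. By list, 9 of 10 calmodulin-like genes, all 3 WRKY, 3 ERF and 5 PUB genes, 2 of 3 zinc finger genes, OPCL1 and AP2C2 were higher at 3 h. Some members did likewise (24 of 100), as described above for AT2G25735 and AT1G66090.

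Of 22 genes of abscisic acid and salt responses, 9 matched a probe set that passed the limit, and the rest matched none by name. In shoots at 1 h, 0 of the 9 were called higher or lower by limma, and 2 were lower at an unadjusted p under 0.05. At 3 h, 8 of the 9 were higher, with a median of 5.19. COR15A, a cold-regulated plastid protein, was at 1.07 at 1 h and 5.70 ± 0.79 at 3 h. Of 12 clock genes 2 matched such a probe set by name, and the rest matched none. GI, an evening gene, stood at 1.92 (3 h), 2.85 (6 h) and -0.72 (24 h) in shoots against 0.5 h, and COR27 was at 4.25 at 6 h and 0.15 at 24 h. COR27 had 0.496 and 0.751 in shoots at 0.5 h and also passed the limit through later arrays alone. GI at 24 h had an adjusted p of 0.0133 by limma and missed the 2-fold limit. What time of day contributes to the members' values was not tested.

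**Figure D4:**
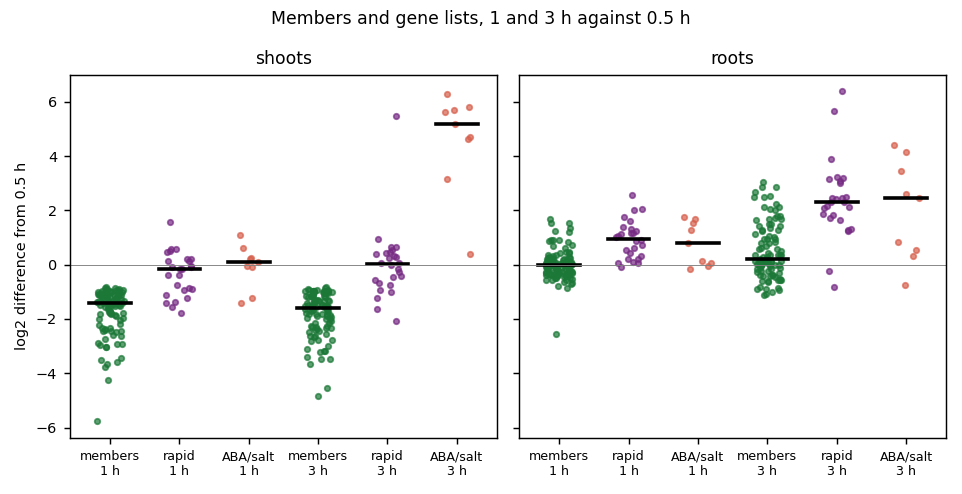
Differences from 0.5 h at 1 and 3 h in shoots (left) and roots (right) for the 100 members (green), the 26 genes of the rapid response lists (purple) and the 9 genes of abscisic acid and salt responses (red), with bars at the medians, on the log2 scale. In shoots the members lie below 0 because they were chosen so, and no contrast with the lists is drawn there. In roots at 3 h the medians of members and rapid response genes are 0.22 and 2.32. Some of the list genes passed the signal limit through later root arrays alone, which favours a rise there.

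In the gene order of the RefSeq annotation, 6 pairs of members lay within 10 protein-coding genes of each other. AT4G10910 and AT4G10925 are adjacent. AT4G10910 had shoot signals of 84.9 and 67.1 at 0.5 h and 1.01 to 15.3 later. AT4G10925 is a member too, with a score of 0.92. The glutaredoxins AT3G62930 and AT3G62950 are the next closest pair, and the other pairs lie 7 to 10 genes apart.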

How the data were processed

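Per the submitters' processing notes, the authors used MAS5, which gives each probe set of an array a linear intensity; of version and settings, nothing is given in the sources used here. All 24 deposited columns were used as they stand. From them log2(signal + 2.2) was computed with the deposited scaling kept; 2.2 and 42 are close to the 10th percentile and the median of all values. Left out were 64 control probe sets, and 15170 with a signal of 42 or more in at least 2 arrays were tested. Probe sets were named through the platform's gene table (13513 of 1 gene, 503 of several, 8794 unlisted); 99 of the 100 members matched RefSeq's table, which holds no product names here, so the protein families given are general knowledge.

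All arrays entered 1 fit with 12 group means (lmFit and eBayes with a trend, limma 3.58.1, R 4.3.3; 12 residual and 4.15 prior degrees of freedom). Tests were two-sided and adjusted by Benjamini-Hochberg over all probe sets of a contrast; calls required adjusted p under 0.05 together with a 2-fold difference. The procedure was run on simulated data with independent normal spread and changes in roots at 3 h alone. It called 78 of 100 changes of 1.5 and 96 of 100 of 3 on the log2 scale, with 4 false calls (15170 probe sets tested). Real spread may differ from that setting. Figures used matplotlib 3.10.9 under Python 3.11.15. Named were the 20 members of highest score, the 3 on each side of the limit, the 5 highest and 5 lowest root differences at 1, 3 and 24 h and the 10 brightest, from which those above were described; members grouped by protein family and those called in roots at 6 h were picked with their values in view. The members and lists were chosen with earlier results of these data known. No promoter or protein sequences were used here.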

Additional observations from a re-analysis of the deposited data

Results flagged for a closer look

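Members that moved in opposite directions in the 2 tissues were flagged. In 48 of the 100 members both root arrays of 3 h lay above both root arrays of 0.5 h while both shoot arrays of 3 h lay below both of 0.5 h, and at 6 h there were 42. The shoot side of this pattern is fixed by how the members were chosen, so these counts add little to those in roots alone (49 and 42). The difference between the tissues was not tested. Over all probe sets tested, both root arrays lay above those of 0.5 h in 26.5% at 3 h and 29.8% at 6 h. AT2G39400, AT1G66090 and AT5G14730 are examples whose values are given above. Groups of 2 arrays were not tested for outlying arrays.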

How the results depend on the processing

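Counts are of members in roots against 0.5 h unless list genes in shoots are named. Leaving out 1 array at a time, members higher ranged from 0 to 1 at 1 h, 15 to 28 at 3 h, 21 to 25 at 6 h, 3 to 17 at 12 h and 4 to 11 at 24 h, and members lower from 0 to 0, 0 to 3, 6 to 9, 6 to 16 and 6 to 10. The 26 rapid response genes in shoots ranged from 0 to 1 higher at 1 h, 1 to 2 at 3 and 6 h and 1 to 1 at 12 and 24 h, and from 0 to 1, 0 to 2, 0 to 3, 1 to 4 and 2 to 4 lower at 1, 3, 6, 12 and 24 h. The single member lower at 3 h became 0 with a pseudocount of 16, median centring, quantile normalization, a filter by the tissue's arrays, the tissue fitted alone and 1 h as the reference. With a pseudocount of 16, 6 members were lower at 24 h, and of the list genes 0 were higher at 1 h, 0 lower at 3 h and 1 lower at 12 h. Median centring and quantile normalization each gave 0 list genes higher at 1 h. The tissue's filter, chosen after seeing the data, left 1, 0 and 0 list genes lower at 3, 12 and 24 h. With the tissue alone, 0 members were higher at 1 h and 4 at 12 h, and 1 list gene was lower at each of 1, 3 and 12 h. With no fold limit, members higher were 2, 12 and 17 at 1, 12 and 24 h, and members lower 7, 20, 19 and 17 at 3, 6, 12 and 24 h. With 1 h as the reference, 15 members were higher at 3 h and 4 at 12 h, list genes higher were 3, 3, 2 and 2 and lower 0, 1, 0 and 2 at 3, 6, 12 and 24 h, and AT5G26270 at 24 h went from -2.27 to 0.27. Without both root arrays of 12 h, chosen after seeing the data, 2 members were higher at 1 h and 28 at 3 h. The other counts stayed within 1.5 times under every alternative run; the causes were not tested.

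The labels do not say what a replicate number shares, and replicate differences of 0.5 h and later groups correlated at -0.13 to 0.22 in roots and -0.03 to 0.04 in shoots. With the replicate number as a block, 24 members were higher at 3 h and 6 h, 6 at 12 h and 9 at 24 h, and the list counts were as in the fit without it.

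The choice of members depended on the score's form: with the median in place of the highest later mean, 57 of the 100 were chosen again. Other settings kept 86 to 98, and leaving out 1 array 82 to 99. Signals near 2.2 carry little information, so differences of dim members depend on the pseudocount. Promoter motifs were not run, as no sequences were used here.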
